A study of Mus musculus with 2 samples.

Results

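The data describe 318 cells of the mouse temporomandibular joint (TMJ) that carried RNA of Tnmd or Thbs4, a gene pair used to mark tendon and ligament cells. The cells were selected on measured values: at least 5 unique molecular identifiers (UMIs, each standing for 1 captured RNA molecule) of Tnmd and Thbs4 together, under 0.1% of UMIs from the cartilage genes Col2a1, Acan and Hapln1, no UMI of the leukocyte gene Ptprc, and fewer than 2 UMIs of the endothelial genes Pecam1 and Cdh5. Only barcodes with at least 500 genes, at most 10% mitochondrial UMIs and at most 1% hemoglobin UMIs were considered. The 13380 deposited barcodes held 6681 such cells, and the rule took 190 of the 2667 from PBS and 128 of the 4014 from CFA.

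The study compared the inflamed with the control TMJ by droplet single-cell RNA sequencing. One library came from wild-type C57BL/6 mice (C57BL/6J in the methods), 8 to 10 weeks old per the labels, whose TMJs had received PBS, and one from mice of the same kind whose TMJs had received complete Freund's adjuvant (CFA), an oil emulsion with killed mycobacteria that provokes lasting inflammation. By the study's methods the mice were female and 8 weeks old when both joints were injected with 10 µL (CFA at 5 mg/mL). Tissue was collected 3 weeks after the injection (n = 3 per group), so the mice were then older than the labels state. The dissected tissue (disc, condyle, ligament, muscle and temporal bone) was digested as a whole before beads removed CD45-positive cells. All cells of a condition ran as 1 library, so no test of CFA against PBS was possible, and every interval given (95%) covers counting error only, not the variation between mice. Cells of 1 library are not replicates, and the injection cannot be told apart from any other difference between the 2 libraries.

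Tendons and ligaments are built by fibroblasts that lay down parallel type I collagen. The transcription factors Scx and Mkx maintain this programme, and Tnmd (tenomodulin, a membrane glycoprotein) and small leucine-rich proteoglycans such as Fmod and Kera shape the collagen fibrils. Thbs4 (thrombospondin-4) is a matrix glycoprotein of tendon and muscle attachments, but it is also made by other connective tissue cells. Levels are given as CPM: the UMIs of a gene summed over a set of cells and scaled to 1000000 UMIs of those cells. Since the reads come from the 3′ ends of transcripts, a CPM value is used here to compare sets of cells for 1 gene, not genes with each other.

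In GRCm38, Tnmd lies on the plus strand of chrX:133850980-133865577 and Thbs4 on the minus strand of chr13:92751590-92794818. The selected cells held 2580279 UMIs in PBS (median 11894.5 UMIs and 3743 genes per cell) and 2462003 UMIs in CFA (median 18503.5 UMIs and 4638 genes per cell), so 1 UMI in the sum is worth 0.388 and 0.406 CPM. No barcode of a selected cell was found among the selected cells of the other library, and 10 barcodes were shared among all those deposited. The CFA cells were thus deeper, which makes a fixed limit of 5 UMIs easier to reach. With a limit of 0.05% of a cell's UMIs in its place, 175 PBS and 105 CFA cells met the rule.

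The selected cells made up 7.12% of the PBS cells (exact Clopper-Pearson interval 6.18 to 8.17%) and 3.19% of the CFA cells (2.67 to 3.78%), a ratio of 0.448. The share depended on which other cells were counted. Without the hemoglobin limit, which removed many more barcodes in PBS, 237 of 5845 barcodes (4.05%) and 129 of 4353 barcodes (2.96%) met the gene criteria, a ratio of 0.731. With blood-lineage cells taken out of the denominator the shares came to 8.26% and 4.97%, and their ratio to 0.602. The CFA share was the lower one in each of these counts.

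Thbs4, not Tnmd, brought most cells into the set. In PBS, 68 of the 190 cells had UMIs of both genes, 112 had Thbs4 alone and 10 had Tnmd alone. In CFA, 21 of the 128 cells had both, 107 had Thbs4 alone and none had Tnmd alone. Tnmd was therefore seen in 41.1% of the selected PBS cells (interval 34.0 to 48.4%) and in 16.4% of the selected CFA cells (10.5 to 24.0%). The share of Tnmd-bearing cells among the selected cells was lower in CFA although the CFA cells were deeper. After each cell was thinned to 2000 UMIs the shares were 36.0% and 13.3%. In endothelial cells, which should lack the gene, 0.130% of 772 PBS cells and 0.305% of 984 CFA cells had a Tnmd UMI, with median depths of 6151 and 4724.5 UMIs.

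**Figure D1:**
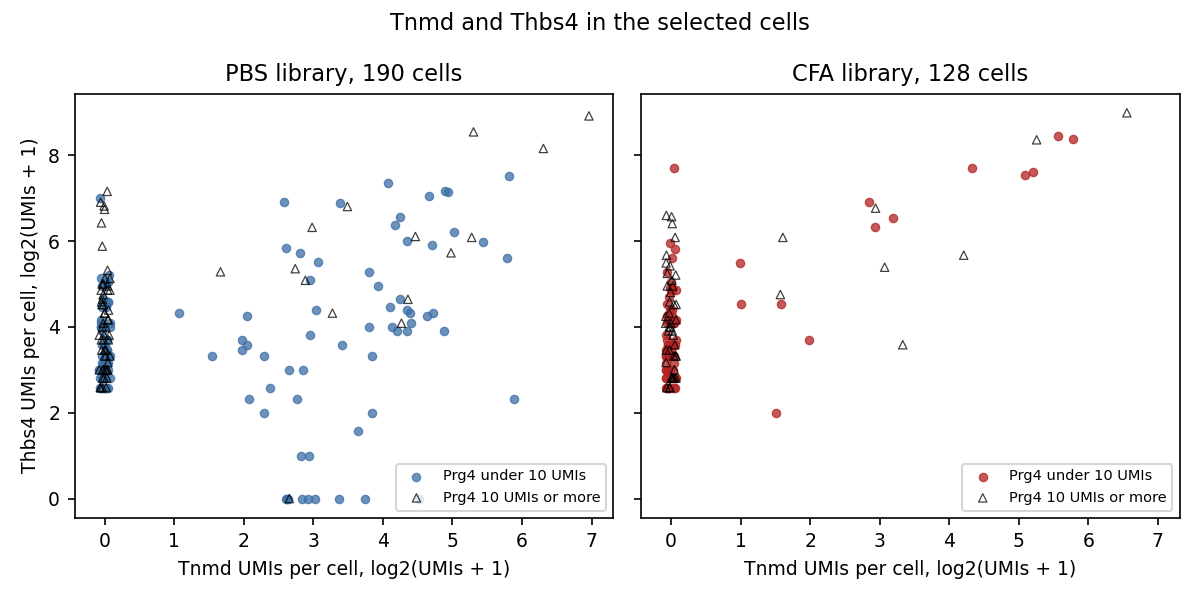
Each point is 1 selected cell; the axes give its Tnmd UMIs and Thbs4 UMIs as log2(UMIs + 1), for 190 PBS cells (left) and 128 CFA cells (right), with triangles for cells with 10 or more Prg4 UMIs. The column at 0 on the horizontal axis holds the 112 PBS and 107 CFA cells without Tnmd, and all 128 CFA cells lie above 0 on the vertical axis.

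The cells near the threshold carried less RNA of Scx, Mkx, Kera, Fmod and Cilp than those far inside it. Comp did not follow this in CFA, at 204 CPM just inside, 1034 CPM just outside and 881 CPM far inside. The sets are given next. With 5 to 6 Tnmd and Thbs4 UMIs there were 24 PBS and 26 CFA cells, and just outside, with 3 to 4 UMIs, 42 PBS and 27 CFA cells. Scx measured 38.9 CPM in PBS and 6.51 CPM in CFA just inside, 24.2 and 35.6 CPM just outside, and 269.7 and 206 CPM in cells with 20 UMIs or more. In CFA the values beside the threshold rest on 3 and 11 Scx UMIs. Kera measured, in PBS and in the same order, 53.8, 36.2 and 679.9 CPM, and in CFA it had no UMI in the sets on either side of the threshold and measured 302 CPM in the cells with 20 UMIs or more.

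The label of tendon and ligament cells was checked against the 8 markers that the rule did not use (Postn, Gpx3, Scx, Mkx, Fmod, Kera, Comp and Chad), and each had at least 50 CPM in the selected cells of both libraries. Postn (periostin) and Gpx3 (a secreted glutathione peroxidase) did not set them apart: Postn measured 843 CPM in PBS and 840.0 CPM in CFA against 1223 CPM in PBS and 949.7 CPM in CFA in other fibroblasts, and Gpx3 459 CPM in PBS and 728 CPM in CFA against 855 CPM in PBS and 1154 CPM in CFA. These other fibroblasts (272 PBS and 212 CFA cells) had at least 5 Dcn UMIs, a Pdgfra UMI, at most 1 UMI of Tnmd and Thbs4, and fewer than 10 UMIs of the lubricin gene Prg4. Because most selected cells had no Tnmd, the cells are called Tnmd/Thbs4 cells below.

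Against other fibroblasts, 46 of 4435 tested genes (1.04%) were at least 2-fold higher in the Tnmd/Thbs4 cells of both libraries, with 10 CPM added to each level, and 84 (1.89%) were at least 2-fold lower. Genes used to choose either set of cells were left out, and tested genes had at least 50 CPM in at least 1 set and 20 UMIs in all. Tendon genes led the first group. Kera (keratocan) measured 388 CPM in PBS and 137 CPM in CFA, against 10.2 CPM in PBS and 0.733 CPM in CFA in other fibroblasts, which is 19.8 in PBS and 13.7 in CFA as a ratio of levels with the added 10 CPM. Scx measured 151 CPM in PBS and 95.5 CPM in CFA against 13.6 CPM in PBS and 4.03 CPM in CFA, and Mkx 105 CPM in PBS and 77.6 CPM in CFA against 13.9 CPM in PBS and 31.5 CPM in CFA. The other genes with the highest ratios in both libraries were Chodl (chondrolectin), Ptx4 (a pentraxin), the junction collagen gene Col22a1, Cilp (cartilage intermediate layer protein), Chad (chondroadherin), Kirrel3 (an adhesion molecule of neurons), Comp, the inositol transporter gene Slc5a3, Scube2 and Dgkb. Comp and Chad are also cartilage genes, and their levels in the 10 PBS and 24 CFA chondrocytes were far higher (10421 CPM in PBS and 8127 CPM in CFA for Comp).

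By gene list, 2 of 6 tested tendon transcription factor genes (Scx and Mkx), 3 of 11 small leucine-rich proteoglycan genes (Chad, Kera and Prelp), 4 of 24 matrix glycoprotein and elastic fibre genes (Cilp, Cilp2, Comp and Fn1) and 2 of 20 collagen genes (Col22a1 and Col8a1) were at least 2-fold higher than in other fibroblasts in both libraries, and none of these 4 lists had a member that was 2-fold lower in both. The lowest ratios belonged to bone genes, Bglap, Bglap2, Alpl and Phex, and to Car3 and Cxcl13. The other fibroblasts as defined included cells with bone genes: Bglap (osteocalcin) measured 4935 CPM in PBS and 2349.9 CPM in CFA in them, and 18.1 CPM in PBS and 7.26 CPM in CFA once cells with 5 or more UMIs of Bglap, Bglap2 and Ibsp were left out. Against the remaining 245 PBS and 189 CFA fibroblasts, a comparison chosen after the values were seen, 44 of 4492 genes (0.98%) were higher and 76 (1.69%) lower. Cxcl13, a B cell chemokine of some stromal cells, had no UMI in the Tnmd/Thbs4 cells of either library, which allows up to 1.16 CPM in PBS and 1.22 CPM in CFA, against 62.4 CPM in PBS and 41.4 CPM in CFA in other fibroblasts.

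The low ratios of several of these genes depended on the fibroblasts with bone genes. With those cells left out, the ratios of Bglap and Bglap2 turned from lower to higher, at 2.08 in PBS and 9.64 in CFA for Bglap and 8.49 in PBS and 7.61 in CFA for Bglap2. Both genes chose the cells left out, so these values are a description. In CFA 1 Tnmd/Thbs4 cell held 93.8% of the Bglap UMIs. Alpl, at 0.569 in PBS and 0.228 in CFA, and Car3, at 0.882 in PBS and 0.959 in CFA, were no longer 2-fold lower in both libraries. Phex, at 0.156 in PBS and 0.233 in CFA, and Cxcl13, at 0.116 in PBS and 0.172 in CFA, were.

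The cells with a Tnmd UMI (78 PBS and 21 CFA cells) held the higher levels of most tendon genes named here, and those without one (112 PBS and 107 CFA cells) the lower. This split was made after the values were seen, in place of a planned split into cells with Tnmd alone and Thbs4 alone, which CFA did not allow. Across 4628 tested genes, 145 (3.13%) were at least 2-fold higher in cells with Tnmd in both libraries and 166 (3.59%) at least 2-fold lower. Kirrel3 measured 918 CPM in PBS and 1036 CPM in CFA in cells with Tnmd and 25.8 CPM in PBS and 5.92 CPM in CFA in cells without. Kera measured 910.4 CPM in PBS and 763 CPM in CFA with Tnmd and 43.1 CPM in PBS and 2.96 CPM in CFA without, and Ptx4 319 CPM in PBS and 491 CPM in CFA with and 5.79 CPM in PBS and 0.986 CPM in CFA without. Not every marker went this way in CFA: Comp measured 667 CPM in PBS and 470.5 CPM in CFA with Tnmd and 472 CPM in PBS and 582 CPM in CFA without, and Gpx3 536 CPM in PBS and 653 CPM in CFA with and 408 CPM in PBS and 744 CPM in CFA without.

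The transcription factors showed the same division. Scx measured 319 CPM in PBS and 457 CPM in CFA in cells with Tnmd and 39.9 CPM in PBS and 18.2 CPM in CFA in cells without, and Mkx 240.5 CPM in PBS and 295 CPM in CFA against 16.1 CPM in PBS and 31.1 CPM in CFA. A Scx UMI was seen in 62.8% of PBS and 85.7% of CFA cells with Tnmd, against 22.3% and 14.0% of those without. In all, 4 of 8 tested tendon transcription factor genes (Scx, Mkx, Eya1 and Eya2) were at least 2-fold higher with Tnmd in both libraries. Of the small leucine-rich proteoglycan genes, Chad, Fmod, Kera and Ogn were higher by that measure and Lum was lower, of 11 tested. Of 20 collagen genes, Col11a1, Col11a2, Col12a1, Col22a1 and Col24a1 were higher and none lower. Col11a1, a chain of the collagen that seeds thin fibrils, measured 1097 CPM in PBS and 1241 CPM in CFA with Tnmd and 61.8 CPM in PBS and 79.9 CPM in CFA without. Chodl, Scube2, Fat3 (a large cadherin), Gas2 and Col13a1 were the other leading genes of the cells with Tnmd. In CFA these cells numbered 21, and for several genes 1 of them held a large part of the UMIs: 42.3% for Kirrel3, 29.3% for Kera and 24.1% for Tnmd.

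**Figure D2:**
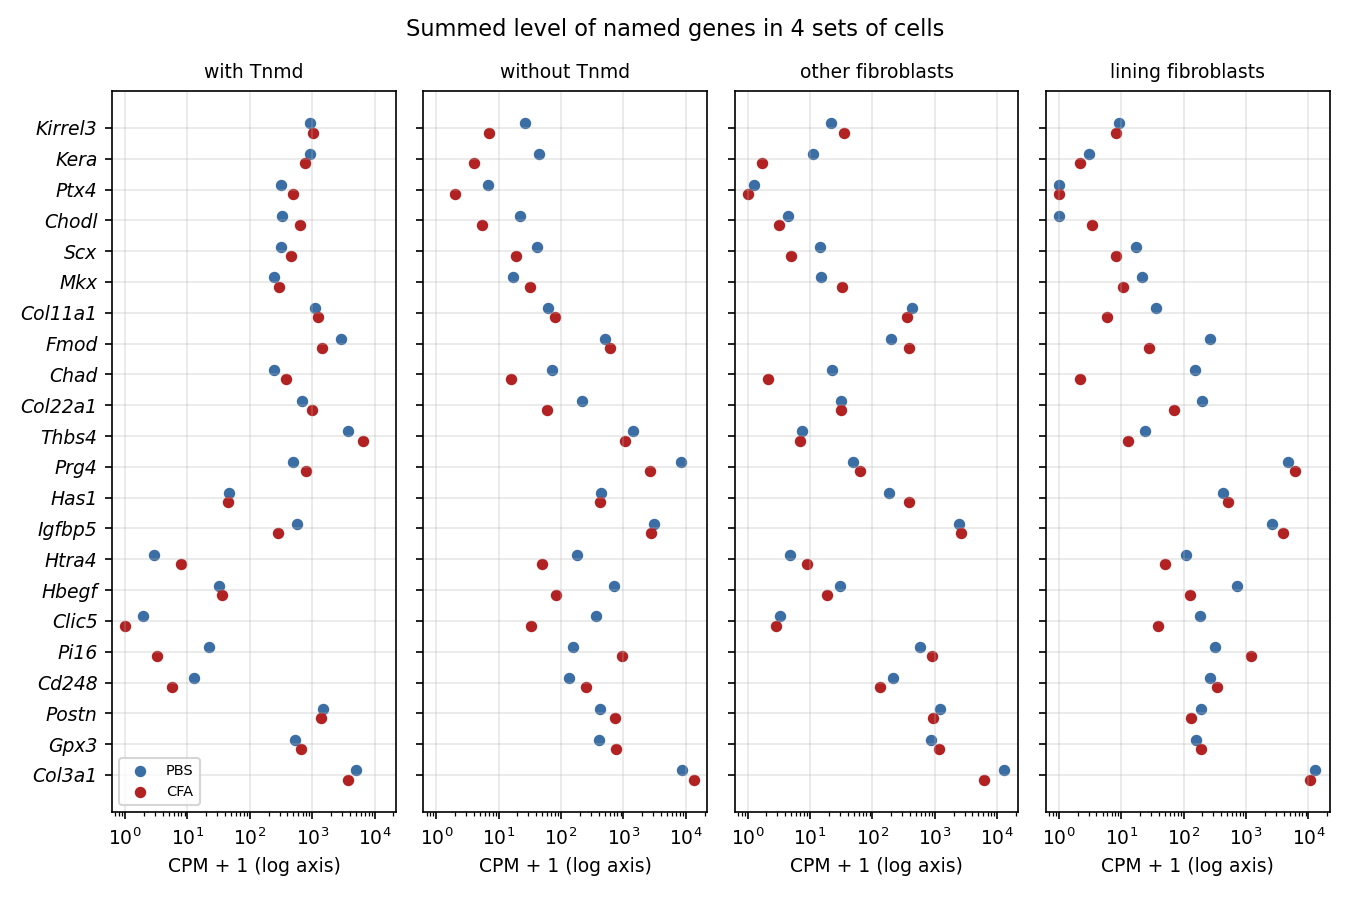
Level of each named gene (CPM + 1, log axis) in the Tnmd/Thbs4 cells with and without a Tnmd UMI, in other fibroblasts and in lining fibroblasts, in the PBS (blue) and CFA (red) library. Kirrel3, Kera, Ptx4, Chodl, Scx and Mkx stand higher in the first panel than in the other 3, while Has1, Igfbp5 and Pi16 stand lowest there.

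The cells without Tnmd held the higher levels of several genes of the joint lining, but not of all. Col22a1, which the study lists as a lining marker, measured 691 CPM in PBS and 987 CPM in CFA with Tnmd. Without Tnmd it measured 370 and 108 CPM in cells with 10 or more Prg4 UMIs, and 1.56 and 15.5 CPM in the rest. Prg4 (lubricin, the boundary lubricant of joint surfaces) measured 8502 CPM in PBS and 2638 CPM in CFA in cells without Tnmd and 489 CPM in PBS and 798 CPM in CFA in cells with it. Per cell, the median was 9.5 Prg4 UMIs in PBS and 4 in CFA without Tnmd, and 2 and 7 with it. Has1, a hyaluronan synthase, measured 437 CPM in PBS and 425 CPM in CFA without Tnmd and 45.8 CPM in PBS and 43.8 CPM in CFA with, and Igfbp5, an IGF-binding protein, 3034 CPM in PBS and 2719 CPM in CFA against 563 CPM in PBS and 284 CPM in CFA. Cd248, Pi16, Mmp3, Gas7, Pcsk6, Tmtc2, Emilin2 and Bglap2 were the other leading genes of the cells without Tnmd. Of 6 tested lubricin and hyaluronan genes, Cd44, Has1, Has2 and Vcan were at least 2-fold lower with Tnmd in both libraries. Of 18 tested protease and inhibitor genes, Adamts5, Adamts12, Mmp3, Mmp13 and Mmp19 were lower with Tnmd and none was higher.

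Within the cells without Tnmd, 56 PBS and 44 CFA cells had 10 or more Prg4 UMIs. In these cells Htra4, Clic5 and Hbegf, genes known from the synovial lining, measured 299, 617 and 1186 CPM in PBS, against 12.4, 0 and 37.3 CPM in the 56 PBS cells with less Prg4. In CFA the values were 93.7, 66.8 and 172 CPM in cells with high Prg4 and 9.09, 3.64 and 8.18 CPM in the 63 others. The Clic5 and Hbegf UMIs of the PBS cells with high Prg4 lay in 14 and 20 of the 56 cells, and in PBS 1 cell held 26.6% of all Clic5 UMIs. Over all Tnmd/Thbs4 cells, leaving out the 23 PBS and 10 CFA cells with other types' genes (5 or more mural, 5 or more osteoblast or 20 or more Schwann UMIs) took Clic5 in PBS from 218 to 8.45 CPM and Hbegf from 440.3 to 96.3 CPM. In the cells with less Prg4, Scx measured 52.9 CPM in PBS and 3.64 CPM in CFA and Kirrel3 54.4 and 8.18 CPM, below the cells with Tnmd. Fmod was also lower than with Tnmd, at 826 and 434 CPM. Comp and Cilp were not lower in PBS, at 812 and 1111 CPM against 667 and 835 CPM in PBS cells with Tnmd. In CFA they measured 155 and 419 CPM, against 470.5 and 1119 CPM with Tnmd. Pi16, a marker of adventitial fibroblasts, measured 255 CPM in PBS and 1204 CPM in CFA in the cells with less Prg4. Thbs4 itself was of like level in both kinds of cells without Tnmd, at 1534 and 1305 CPM in PBS and 1103 and 1029 CPM in CFA.

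Between the libraries, 195 of 4036 tested genes (4.83%) were at least 2-fold higher in the Tnmd/Thbs4 cells of CFA and 116 (2.87%) at least 2-fold lower. The median log2 CFA to PBS ratio of the tested genes was 0.02. The 12 highest ratios among well-covered genes belonged to Cxcl9, C3, Iigp1, H2-K1, Mmp13, Ifi205, C4b, Lyz2, Cfb, Ifit1, Csmd1 and Psmb8, most of them interferon-induced, antigen presentation or complement genes. Ifi205, an interferon-inducible gene, measured 6.20 CPM in PBS and 152 CPM in CFA, and Csmd1, which codes for a complement-regulating membrane protein, 30.6 CPM in PBS and 554 CPM in CFA. Since the CFA set held fewer cells with Tnmd, a difference over all Tnmd/Thbs4 cells takes in both the make-up of the set and the levels within cells, and ratios are also given for cells with and without Tnmd. Among cells with Tnmd, 290 of 4114 genes (7.05%) were at least 2-fold higher in CFA and 202 (4.91%) lower, and among those without, 225 of 4094 (5.5%) and 161 (3.93%). Whether the 2 kinds of cells differed in their response could not be tested.

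**Figure D3:**
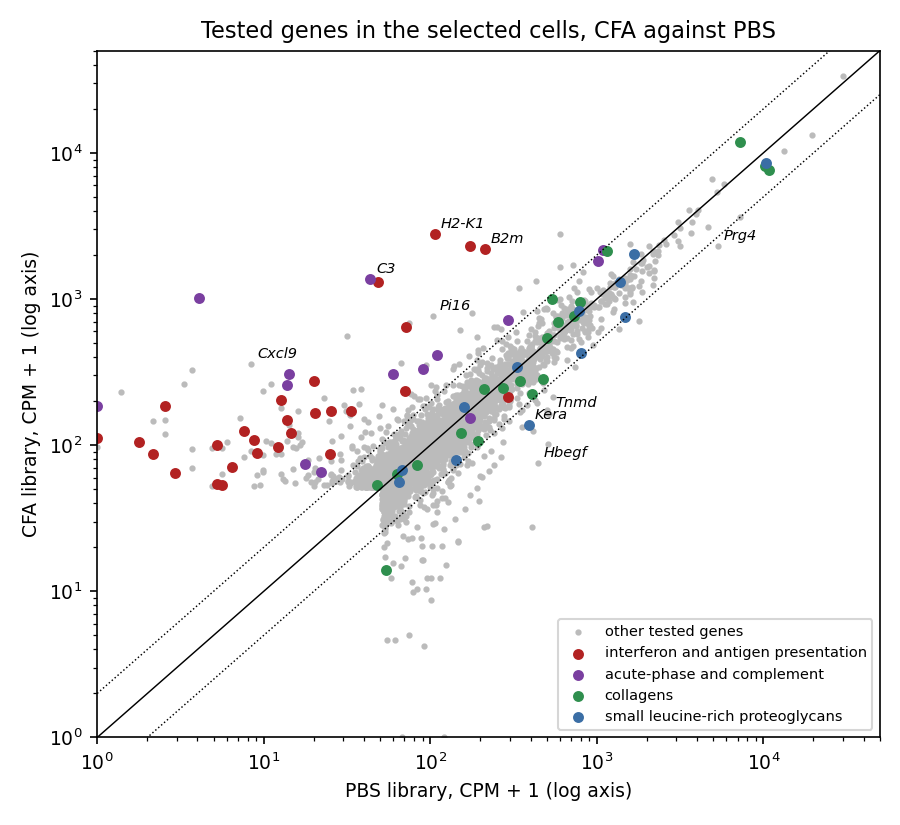
Level (CPM + 1, log axes) of each of the 4036 tested genes in the Tnmd/Thbs4 cells of the PBS and CFA library, with the line of equal levels and dotted lines at 2-fold. Interferon and antigen presentation genes lie above the upper dotted line in 27 of 28 cases, while the collagens and small leucine-rich proteoglycans lie near the line of equal levels apart from Col11a2 and Kera.

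Of the genes that chose the cells, Tnmd measured 516 CPM in PBS and 163 CPM in CFA, a CFA to PBS ratio of 0.317 (0.282 to 0.354), and within cells that had the gene 1296 CPM in PBS and 927 CPM in CFA, a ratio of 0.715 (0.638 to 0.800). Thbs4 measured 2342 CPM in PBS and 2015 CPM in CFA, a ratio of 0.860 (0.828 to 0.893). Within cells with Tnmd, Thbs4 was higher in CFA, at 3708 CPM in PBS and 6467 CPM in CFA, a ratio of 1.74 (1.66 to 1.83), and within cells without Tnmd it was lower, at 1439.6 CPM in PBS and 1063 CPM in CFA. Since the rule used both genes, these values are a description. Over all cells within the limits, Tnmd was at 57.6 CPM in PBS and 11.2 CPM in CFA, and the selected cells held 85.0% and 80.9% of its UMIs.

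The other tendon transcription factors and the matrix lists showed few 2-fold differences between the libraries. Of 6 tested tendon transcription factor genes, none passed 2-fold, with a median log2 ratio of -0.38. Scx measured 151 CPM in PBS and 95.5 CPM in CFA, a ratio of 0.632 (0.535 to 0.744), but within cells with Tnmd the ratio was 1.43 (1.19 to 1.71). Mkx behaved alike, with ratios of 0.736 (0.608 to 0.889) over all cells and 1.23 (0.984 to 1.53) with Tnmd. Kera, at 388 CPM in PBS and 137 CPM in CFA, was the 1 of 12 small leucine-rich proteoglycan genes past 2-fold, and within cells with Tnmd its ratio was 0.839 (0.737 to 0.952). Over all cells Scx, Mkx and Kera were lower in CFA, where 21 of 128 cells had Tnmd against 78 of 190 in PBS. In cells without Tnmd, Scx and Kera were also lower in CFA and Mkx was higher, at the levels given above. In cells with Tnmd 6 of 7 tested factor genes were higher in CFA, Eya2 past 2-fold (median log2 ratio 0.49). Without Tnmd 2 of 4 were higher (median 0.14). Of all tested genes, 2400 of 4114 were higher in CFA with Tnmd (median 0.12) and 1982 of 4094 without (median -0.02). The part of the set's make-up in these differences was not tested.

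Over all Tnmd/Thbs4 cells 1 of 20 collagen genes passed 2-fold, Col11a2, which was lower (53.5 CPM in PBS and 13.0 CPM in CFA). In cells with Tnmd, Col1a1, the main chain of tendon collagen, measured 20239.5 CPM in PBS and 8884 CPM in CFA, a ratio of 0.439 (0.424 to 0.454) that was 0.440 without the top cell of each library. In cells without Tnmd it measured 4561 CPM in PBS and 7441 CPM in CFA, a ratio of 1.63 (1.59 to 1.68). Col14a1, a fibril-associated collagen gene, was likewise lower in CFA with Tnmd (483 CPM in PBS and 99.2 CPM in CFA) and higher without (573 CPM in PBS and 1199 CPM in CFA). Fmod (fibromodulin) measured 2912 CPM in PBS and 1429.9 CPM in CFA with Tnmd and 509 CPM in PBS and 612 CPM in CFA without.

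Of 24 glycoprotein and elastic fibre genes, Tnc (tenascin-C, a matrix protein of injured and loaded tendon) and Efemp1 were at least 2-fold higher in CFA, and Angptl7, Cilp2 and Fbln5 lower. Tnc measured 193 CPM in PBS and 427 CPM in CFA, a ratio of 2.22 (1.99 to 2.47), with 1.87 (1.56 to 2.25) in cells with Tnmd and 2.86 (2.46 to 3.33) in cells without. Of 21 collagen processing and crosslinking genes, the prolyl hydroxylase genes P4ha2 and P4ha3 were higher and P3h2 lower. P4ha3 measured 43.0 CPM in PBS and 121 CPM in CFA, a ratio of 2.80 (2.25 to 3.52), with 2.45 (1.43 to 4.19) in cells with Tnmd and 2.51 (1.95 to 3.27) in cells without.

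Interferon-induced and antigen presentation genes were higher in CFA. Of 28 tested members of this list, 27 were at least 2-fold higher in CFA and none was 2-fold lower, with a median log2 ratio of 3.67. The filter on level had a part in this count: 6 of the 28 had at least 50 CPM in PBS, of which 5 were 2-fold higher, and the other 22 were tested for their CFA level alone. Summed without a filter, the list's 31 genes measured 1196 CPM in PBS and 12373 CPM in CFA in the Tnmd/Thbs4 cells, 2134 CPM in PBS and 6590.3 CPM in CFA in other fibroblasts and 1842 CPM in PBS and 6719.6 CPM in CFA in those without bone genes. In cells with Tnmd 24 of 25 tested members were higher (median 3.62), and in cells without Tnmd 28 of 29 (median 4.06). Of these, 17 of the 25 and 23 of the 29 were tested for their CFA level alone. Of the 8 and 6 with at least 50 CPM in PBS, 7 and 5 were higher. In other fibroblasts, where 4.88% of 4163 genes were at least 2-fold higher and 2.02% lower, 16 of 20 tested members were higher, with a median log2 ratio of 1.39. With fibroblasts with bone genes left out, where 6.08% of 4226 genes were higher and 2.39% lower, 17 of 21 were higher (median 1.94). The tested members differ between these sets of cells. In the 2 sets of other fibroblasts, 11 of the 20 and 12 of the 21 were tested for their CFA level alone. Of the 9 with at least 50 CPM in PBS in each of these sets, 6 were higher. The member under 2-fold in the Tnmd/Thbs4 cells was Irf1, an interferon-responsive transcription factor gene, at 292 CPM in PBS and 212 CPM in CFA.

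The class I heavy chain gene H2-K1, which presents peptides to T cells, measured 105 CPM in PBS and 2773 CPM in CFA, a ratio of 26.3 (23.3 to 29.8). The ratio was 26.3 (21.5 to 32.4) in cells with Tnmd and 26.1 (22.3 to 30.6) in cells without. In other fibroblasts H2-K1 measured 287 CPM in PBS and 1228 CPM in CFA, a ratio of 4.28 (3.98 to 4.60), and in endothelial cells 1006 CPM in PBS and 2037 CPM in CFA. The Tnmd/Thbs4 cells had the lowest level of these 3 sets in PBS and the highest in CFA. B2m, the light chain of class I molecules, measured 212 CPM in PBS and 2188 CPM in CFA, a ratio of 10.3 (9.47 to 11.3), and H2-D1 171 CPM in PBS and 2301 CPM in CFA.

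Genes that make and load the peptides went the same way. The immunoproteasome subunit genes Psmb8 and Psmb9 measured 11.6 CPM in PBS and 203 CPM in CFA and 4.26 CPM in PBS and 99.5 CPM in CFA, with ratios of 17.4 (12.1 to 26.1) and 23.3 (12.8 to 47.4). The peptide transporter gene Tap1 had a ratio of 8.53 (5.79 to 13.0). The antiviral genes Isg15 and Ifit1 measured 19.0 CPM in PBS and 273 CPM in CFA and 6.59 CPM in PBS and 125 CPM in CFA. Of the interferon-inducible GTPase genes, Igtp measured 19.4 CPM in PBS and 166 CPM in CFA and Iigp1 47.7 CPM in PBS and 1311 CPM in CFA. In PBS 1 cell held 88.6% of all Iigp1 UMIs, and without the top cell of each library the ratio of Iigp1 went from 27.5 to 226. The class II genes were almost absent from PBS cells: Cd74 had 4 UMIs in PBS and 453 in CFA, and H2-Aa 2 and 258. In cells with Tnmd, 1 CFA cell held 80.6% of the Cd74 UMIs.

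The difference was seen in most cells. The list's 31 genes took a median of 0.0894% of a cell's UMIs in PBS (0 to 1.60%) and 1.03% in CFA (0.0375 to 3.10%). The ranges overlapped: 26 of 128 CFA cells lay above the highest PBS cell, and 75 above the second highest, at 0.852%. In cells with Tnmd the medians were 0.0742% and 0.877%, and in cells without 0.0954% and 1.04%.

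**Figure D4:**
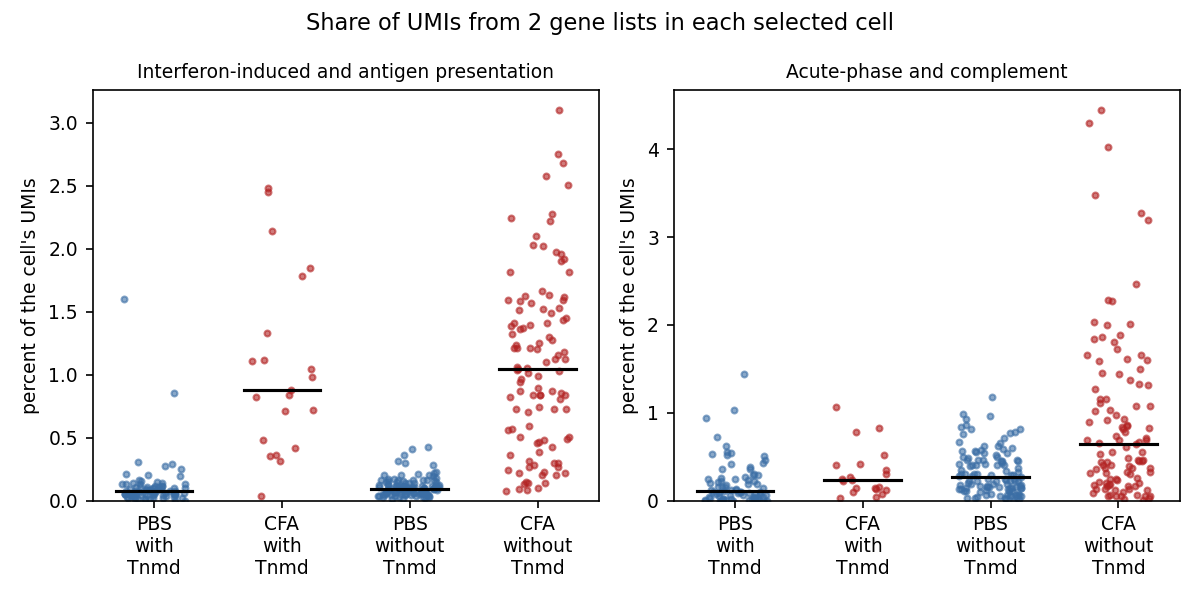
Percent of each Tnmd/Thbs4 cell's UMIs that came from the interferon and antigen presentation list (left) and the acute-phase and complement list (right), by library and by the presence of a Tnmd UMI, with a bar at the median. The interferon share is higher in CFA for both kinds of cells, and the highest acute-phase shares, up to 4.45%, are in CFA cells without Tnmd.

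The promoters of 4 of these genes show the sequence that the interferon-activated factors are known to read. The 250 bases before the annotated start are given 5′ to 3′ on the gene's strand from RefSeq (GRCm38.p6), with matches in capitals to GAAANNGAA, the core of the interferon-stimulated response element, or to TTCNNNGAA, the gamma-activated site, searched on both strands.
Isg15 (chr4:156200819-156201068, minus strand): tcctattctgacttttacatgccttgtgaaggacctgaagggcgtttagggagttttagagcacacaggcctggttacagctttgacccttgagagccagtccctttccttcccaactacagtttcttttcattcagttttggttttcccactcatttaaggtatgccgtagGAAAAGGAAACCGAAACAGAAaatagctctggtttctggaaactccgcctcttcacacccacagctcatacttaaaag
Ifit1 (chr19:34640639-34640888, plus strand): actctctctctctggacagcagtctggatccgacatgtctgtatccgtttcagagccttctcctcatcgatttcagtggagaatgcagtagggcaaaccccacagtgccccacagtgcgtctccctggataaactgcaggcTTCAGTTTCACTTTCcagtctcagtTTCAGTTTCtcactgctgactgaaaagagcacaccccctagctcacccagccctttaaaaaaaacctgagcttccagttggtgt
B2m (chr2:122147437-122147686, plus strand): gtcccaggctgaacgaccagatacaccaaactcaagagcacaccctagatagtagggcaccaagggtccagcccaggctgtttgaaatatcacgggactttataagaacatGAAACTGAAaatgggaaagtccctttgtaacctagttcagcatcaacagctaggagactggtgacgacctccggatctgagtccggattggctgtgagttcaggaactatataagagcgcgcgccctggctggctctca
Igtp (chr11:58199306-58199555, plus strand): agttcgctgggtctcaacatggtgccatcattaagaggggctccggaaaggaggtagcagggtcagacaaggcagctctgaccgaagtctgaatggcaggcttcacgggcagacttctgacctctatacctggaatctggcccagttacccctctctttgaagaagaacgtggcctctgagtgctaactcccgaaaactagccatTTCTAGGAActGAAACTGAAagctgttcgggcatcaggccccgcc
Isg15 held 3 overlapping matches to the first motif, Ifit1 held 3, of which 2 overlapped, on the opposite strand, and B2m held 1. Igtp held 1 match to each motif. The TTCNNNGAA pattern is its own reverse complement, so any match to it lies on both strands. Of the 23 list members with a promoter entry, 12 (52.2%) held the first motif and 7 (30.4%) the other, against 7.13% and 7.02% of all 32851 promoters. The units differ: a list member counted if any of its promoter entries held the motif, while the share of all promoters counts single entries. These matches are a description of the letters and do not show that a factor was bound.

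Acute-phase and complement genes were also higher in CFA over all Tnmd/Thbs4 cells. Of 14 tested members, 11 were at least 2-fold higher in CFA and none 2-fold lower, with a median log2 ratio of 2.03. In PBS 7 of the 14 had at least 50 CPM, of which 4 were 2-fold higher, and the other 7 were tested for their CFA level alone. In cells without Tnmd the counts were 11 and 0 of 14 (median 2.26). In cells with Tnmd 2 of 8 tested members were higher and 2 lower, the latter C3 and Cp (median 0.80). Without Tnmd 7 of the 14 were tested for their CFA level alone. With Tnmd 3 of the 8 were tested for their CFA level alone and 2 for their PBS level alone. In other fibroblasts 8 of 13 were higher (median 1.32), and with fibroblasts with bone genes left out 8 of 13 (median 2.04). Summed without a filter, the list's 19 genes measured 2306 CPM in PBS and 3321 CPM in CFA in cells with Tnmd, 3368 CPM in PBS and 10479 CPM in CFA in cells without and 3517 CPM in PBS and 9191 CPM in CFA in other fibroblasts.

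C3, the central complement component, measured 42.6 CPM in PBS and 1373 CPM in CFA, a ratio of 32.2 (26.6 to 39.3). In cells without Tnmd it measured 13.5 CPM in PBS and 1659 CPM in CFA, and in the 21 CFA and 78 PBS cells with Tnmd 86.7 CPM in PBS and 32.3 CPM in CFA, where 60.7% of the PBS UMIs lay in 1 cell. In other fibroblasts C3 measured 351 CPM in PBS and 1632 CPM in CFA and in lining fibroblasts 328 CPM in PBS and 2425 CPM in CFA. Haptoglobin (Hp) had 8 UMIs in PBS and 2510 in CFA, the latter in 32 of the 128 cells, all without Tnmd. C4b measured 13.2 CPM in PBS and 308 CPM in CFA and the complement factor gene Cfb 12.8 CPM in PBS and 258 CPM in CFA. Saa3, an acute-phase serum amyloid, had no UMI in PBS and 456 in CFA (185 CPM), at least 159-fold higher when PBS is set to the limit of 3 counts per library.

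Cytokine, chemokine and adhesion genes gave different counts in the 2 kinds of cells. Over all Tnmd/Thbs4 cells 6 of 14 tested members were at least 2-fold higher in CFA (Ccl7, Cxcl12, Cxcl5, Cxcl9, Il6 and Vcam1) and none lower. In cells without Tnmd 10 of 18 were higher and none lower, and in cells with Tnmd 5 of 8 were lower (Cxcl1, Cxcl12, Icam1, Il33 and Tnfaip6) and none higher. Without Tnmd 8 of the 18 were tested for their CFA level alone and 1 for its PBS level alone. With Tnmd 1 of the 8 was tested for its CFA level alone and 3 for their PBS level alone, so the filter had a part in both counts. Summed without a filter, the list's 24 genes measured 1627 CPM in PBS and 1167 CPM in CFA with Tnmd, and 2257 and 4441 CPM without. In the same cells with Tnmd, the immediate early and heat shock genes, which dissociation is known to induce, were lower in CFA in 16 of 16 cases, 4 of them past 2-fold (Ier3, Klf2, Klf4 and Nr4a1), with a median log2 ratio of -0.80, and their part in these ratios was not tested. Of all 4114 genes tested in these cells, 1714 were lower in CFA. Cxcl12, a chemokine that holds leukocytes in stroma, measured 99.8 CPM in PBS and 425 CPM in CFA without Tnmd and 83.7 CPM in PBS and 13.8 CPM in CFA with Tnmd, where it rested on 86 PBS and 6 CFA UMIs. Cxcl9, which attracts T cells, measured 7.36 CPM in PBS and 358 CPM in CFA, a ratio of 48.6 (30.9 to 81.1), and 59.3 without the top cell of each library. In other fibroblasts it measured 46.7 CPM in PBS and 129 CPM in CFA.

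**Figure D5:**
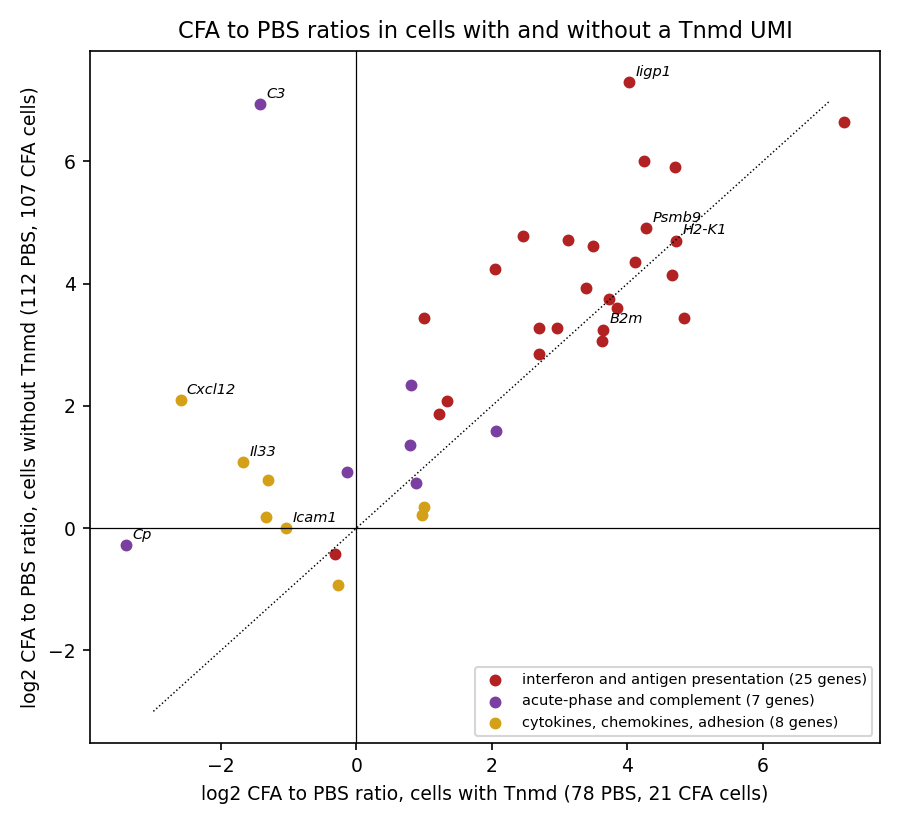
Each point is 1 gene, with its log2 CFA to PBS ratio in cells with Tnmd (horizontal) and without Tnmd (vertical); a count of 0 was set to 3, and the dotted line marks equal ratios. Of the 25 interferon and antigen presentation genes 24 lie in the upper right and Irf1 just below 0 on both axes, while C3, Cxcl12 and Il33 lie in the upper left, lower in CFA with Tnmd and higher without.

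Of the genes that act on the matrix, 4 of 17 tested protease and inhibitor genes were at least 2-fold higher in CFA, among them Adamts5, Mmp13 and Timp1, and 1 lower (Timp3). Timp1, an inhibitor of metalloproteinases, measured 241 CPM in PBS and 643 CPM in CFA, with ratios of 1.97 (1.71 to 2.28) in cells with Tnmd and 4.96 (4.25 to 5.81) in cells without. Timp3 measured 425 CPM in PBS and 203 CPM in CFA, and within cells with Tnmd its ratio was 1.05 (0.880 to 1.25). The aggrecanase gene Adamts5 measured 107 CPM in PBS and 248 CPM in CFA. Mmp13, a collagenase gene, measured 10.1 CPM in PBS and 262 CPM in CFA, but 81.4% of its CFA UMIs were in 1 cell, and without the top cells its ratio went from 26.0 to 7.03.

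Signalling genes gave few differences past 2-fold. Of 6 secreted Wnt antagonist genes Wif1 was higher and Dkk2 and Sfrp2 lower, and Sfrp2 measured 507 CPM in PBS and 100.3 CPM in CFA, a ratio of 0.198 (0.172 to 0.227) that was 0.218 (0.166 to 0.282) with Tnmd and 0.228 (0.192 to 0.270) without. Of 12 IGF and FGF pathway genes Igfbp4 was higher and Igf2 and Igfbp3 lower. Igfbp4 measured 718 CPM in PBS and 1710.4 CPM in CFA, with a ratio of 2.21 (2.08 to 2.35) without Tnmd and 0.988 (0.830 to 1.17) with Tnmd. Of 16 TGF-beta and BMP pathway genes Ltbp2 was higher and Fst and Ltbp4 lower. None of 13 mechanosensor and YAP target genes, 15 antioxidant genes or 7 glycolysis and hypoxia genes passed 2-fold. Of 16 immediate early and heat shock genes, Ier3 alone passed 2-fold over all cells and was lower, and the list's median log2 ratio was -0.34. In cells without Tnmd none of 17 passed (median -0.28), and in other fibroblasts none of 17 (median 0.18). Of 11 chondrogenic and osteogenic genes Bglap, Ibsp and Spp1 were higher and Matn4 lower, with 94.8% of the Ibsp and 93.8% of the Bglap UMIs of CFA in 1 cell. Of 7 lubricin and hyaluronan genes Cemip was higher and Prg4 lower, and of 9 vessel and nerve guidance genes Angpt1 was higher and Sema3a lower. None of 14 cell cycle genes reached the level for testing.

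The summed levels of several lining genes were lower in the CFA cells. Prg4 measured 5312 CPM in PBS and 2314 CPM in CFA, a ratio of 0.436 (0.422 to 0.449), and 0.310 (0.300 to 0.320) within cells without Tnmd. A few PBS cells weighed heavily in this sum, with 2051, 2035, 1794, 1502, 1103 and 1004 Prg4 UMIs, against at most 774 in a CFA cell. The median was 4 Prg4 UMIs per cell in both libraries. In PBS 37.4% of the cells had 10 or more Prg4 UMIs, and in CFA 40.6%. In lining fibroblasts, which had 10 or more Prg4 UMIs and at most 1 of Tnmd and Thbs4 (37 PBS and 44 CFA cells), Prg4 measured 4776 CPM in PBS and 6067 CPM in CFA. Hbegf, a growth factor gene of the lining, measured 440.3 CPM in PBS and 74.7 CPM in CFA, a ratio of 0.170 (0.144 to 0.199), and in lining fibroblasts 714 CPM in PBS and 125 CPM in CFA. The ion channel gene Clic5 measured 218 CPM in PBS and 26.8 CPM in CFA, but 8.45 CPM in PBS and 14.6 CPM in CFA once the cells with other types' genes were left out, which turns its direction. Hbegf measured 96.3 CPM in PBS and 12.8 CPM in CFA without those cells. The calcium-binding protein gene Calb2 measured 100.4 CPM in PBS and 11.4 CPM in CFA, with 58.7% of the Calb2 UMIs of PBS in 1 cell. Calb2 had no UMI in cells with Tnmd.

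Gpc3, Frmpd4, H19 and Lpl, also among the lowest ratios, were lower in both kinds of cells. Gpc3 (glypican-3, a cell-surface proteoglycan) measured 99.3 CPM in PBS and 6.92 CPM in CFA with Tnmd and 281 CPM in PBS and 30.6 CPM in CFA without, and Frmpd4 84.7 CPM in PBS and 6.92 CPM in CFA with Tnmd and 149 CPM in PBS and 15.8 CPM in CFA without. The imprinted RNA H19 measured 221 CPM in PBS and 2.31 CPM in CFA with Tnmd, where 1 PBS cell held 49.3% of its UMIs, and 97.2 CPM in PBS and 24.6 CPM in CFA without. Lpl (lipoprotein lipase) measured 173 CPM in PBS and 43.8 CPM in CFA with Tnmd and 200.2 CPM in PBS and 51.3 CPM in CFA without. Rgs6, Hmcn2, Sfrp2 and F13a1 were also among the 12 lowest ratios over all cells. In cells with Tnmd, Hmcn2 had 16 UMIs in PBS and 1 in CFA and F13a1 2 and 1, too few to compare. F13a1 measured 106 CPM in PBS and 28.4 CPM in CFA over all cells and 1.41 CPM in PBS and 8.39 CPM in CFA once those with other types' genes were left out, which turns its direction.

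Pi16 went the opposite way, at 103 CPM in PBS and 766 CPM in CFA, a ratio of 7.43 (6.54 to 8.49). It stood almost wholly in cells without Tnmd, at 157 CPM in PBS and 929.8 CPM in CFA. In the cells without Tnmd the 7 adventitial fibroblast markers summed to 1345 CPM in PBS and 3022 CPM in CFA, and the 6 lining markers used here to 10053 and 2876 CPM. The cells without Tnmd held less of the lining sum and more of the adventitial sum in CFA. Prg4 alone made up 8502 CPM of the lining sum in PBS and 2638 CPM in CFA. It was uneven between these cells, with a median of 9.5 UMIs in PBS and 4 in CFA and a maximum of 2051 and 774. The adventitial sum does not separate adventitial from lining cells. It was 2366 CPM in PBS and 4202 CPM in CFA in lining fibroblasts, against 2014 and 2381 CPM in other fibroblasts. Whether the genes changed within cells or other cells passed the rule was not tested.

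Other cell types' markers moved with the libraries as well. The summed 7 mural markers were at 659 CPM in PBS and 73.5 CPM in CFA, with Mcam at 0 in CFA, and 12 PBS and 2 CFA cells had 5 or more UMIs of Rgs5 and Notch3. The 5 Schwann markers summed to 247 and 63.8 CPM, with Sox10 at 0 in CFA, the 7 erythroid genes to 772 and 227 CPM, and the 6 neutrophil genes to 74.0 and 119 CPM. The 6 osteoblast and osteocyte markers summed to 203 and 532 CPM. The 6 endothelial markers were at 17.4 and 13.0 CPM, the 7 chondrocyte markers at 60.5 and 55.2 CPM and the 7 muscle fibre markers at 19.4 and 3.66 CPM. Lyz2, a myeloid gene, measured 5.04 CPM in PBS and 104 CPM in CFA, against 4.45 CPM in PBS and 221 CPM in CFA in endothelial and 5.64 CPM in PBS and 303 CPM in CFA in Schwann cells. The part of these other cell types' RNA in the CFA to PBS ratios was not tested beyond leaving cells out. Without the 23 PBS and 10 CFA cells with mural, osteoblast or Schwann genes, 203 genes were at least 2-fold higher in CFA and 124 lower. Among the named genes run under it, that selection turned F13a1 and Clic5, whose lower level in CFA rested on the cells left out, and Bglap, whose higher level in CFA did. H2-K1 and C3 remained far higher in CFA without those cells, at 107 CPM in PBS and 2799 CPM in CFA for H2-K1 and 51.7 CPM in PBS and 1461 CPM in CFA for C3.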

How the data were processed

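Single cells of the TMJ were measured in 2 libraries, 1 from PBS-injected and 1 from CFA-injected mice, grouped by the treatment in the labels. The authors made the deposited UMI counts per gene and barcode with Cell Ranger 7.0.1 on mm10 (GRCm38), per the submitters' processing notes and the methods; the matrices hold 32285 genes and are not normalized. The labels name the 3′ v2 kit and the methods v3.1. The cells and gene lists described here were chosen with earlier results of these data known, so no list is independent support.

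From the counts, UMIs were summed over the cells of a set and divided by their total (CPM). Tested genes had at least 50 CPM in 1 library and 20 UMIs over both, and a difference of 2-fold was called. A ratio carries an exact conditional binomial interval and a share an exact Clopper-Pearson interval (95%), and a count of 0 was set to 3. Comparisons with other cell sets added 10 CPM. The tools were Python 3.11.15, numpy 2.4.6, scipy 1.17.1, pandas 2.3.3. Named genes were Tnmd, Thbs4, Postn, Gpx3 and the tendon transcription factors, the 12 highest and 6 lowest against other fibroblasts, the 12 highest and 12 lowest CFA to PBS ratios (at least 10 UMIs in each library and 100 CPM in 1, without mitochondrial, ribosomal, hemoglobin, immunoglobulin and unnamed genes, and genes under 0.2 of the level in another cell set), the leading genes of the split by Tnmd, and of each list its counts, median and some members; any other named gene was chosen after its values were seen. Some genes that the rule names are not reported here. On simulated counts for the CFA to PBS comparison (4036 genes, 200 changed 4-fold), 100% of the changed genes were recovered past 2-fold. The simulated counts held counting error but no variation between cells or libraries. They therefore do not show how the call performs where 1 cell holds most UMIs of a gene. No doublet caller was run; cells with the most UMIs were left out as an alternative.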

Additional observations from a re-analysis of the deposited data

How the results depend on the processing

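With 1 library per condition no result has a replicate check. No paired analysis was possible because each group is a single library. The ratio of shares, 0.448 in the main count, was 0.731 without the hemoglobin limit and 0.602 with blood-lineage cells out of the denominator. Under the other alternatives for the limits on cells and genes it lay between 0.399 and 0.470. The count of genes at least 2-fold higher in CFA, 195, was 119 at 100 CPM in place of 50, 2433 with no filter other than 1 UMI and 324 with each cell thinned to 2000 UMIs. The count of lower genes, 116, was 73, 2456 and 262 under these settings. Fewer genes were tested in the first setting and genes with few UMIs enter in the second, and for the third the cause was not tested. The count against other fibroblasts, 46, ran from 35 to 61. Leaving out cells with other cell types' genes, and other fibroblasts with osteoblast genes, were chosen after seeing the data.

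Bglap, with a CFA to PBS ratio of 3.23, reversed in 5 settings: 0.237 without the hemoglobin limit, 0.299 with at least 10 UMIs of Tnmd and Thbs4, 0.203 with at least 0.05% of UMIs, 0.239 without the 5% of cells with the most UMIs and 0.339 without cells with other types' genes. In CFA 1 cell held 93.8% of its UMIs. Without cells with other types' genes, Clic5 was at 1.72 and F13a1 at 5.96. No other called CFA to PBS ratio changed direction among the genes run under the alternatives. Those run were Tnmd, Thbs4, Postn, Gpx3, the tendon transcription factors and the genes named for extreme ratios or by the split. Genes named only as members of a list, such as Prg4, Timp1, Tnc, P4ha3, B2m, Isg15, Hp and Igfbp4, were not run. Against other fibroblasts, Bglap and Bglap2 turned from lower to higher once fibroblasts with osteoblast genes were left out. The median log2 ratio of the interferon list lay between 3.46 and 3.79, and that of the acute-phase list between 1.84 and 2.15. Depth limits genes under about 50 CPM and all values in the 21 CFA cells with Tnmd.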

Other observations

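Several genes of the cells with Tnmd are better known elsewhere. Kirrel3 was also seen in endothelial cells, at 195 CPM in PBS and 133 CPM in CFA, and at 8.26 CPM in PBS and 7.21 CPM in CFA in lining fibroblasts. Chodl stands in the marker list of muscle satellite cells, of which Pax7, Myf5, Myod1 and Calcr were at 0 in CFA, and Myf5 and Myod1 at 0 in PBS. Slc5a3, the inositol transporter gene, and Dgkb, a diacylglycerol kinase gene, were higher in CFA within cells with Tnmd, with Slc5a3 at 225 CPM in PBS and 577 CPM in CFA and Dgkb at 273 CPM in PBS and 634 CPM in CFA, and without the top cell of each library the CFA to PBS ratios of the pair were 2.38 and 2.07.

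In CFA 83.2% of the UMIs of the bone gene Bglap2 lay in 1 cell. Among barcodes over the hemoglobin limit, 47 in PBS and 1 in CFA met the gene criteria of the Tnmd/Thbs4 cells.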
